A study of Mus musculus with 6 samples.

Results

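Germ cell and meiosis genes were examined in GC-2 spd(ts) cells, a line derived from mouse spermatocytes (the cells of the testis that go through meiosis). They were 41 genes taken by symbol, from markers of early germ cells and spermatogonia, over the chromosome axis and recombination proteins of meiosis, to genes of spermatids. Of these 41 symbols, 19 were found among the 22127 genes of the mRNA table and 22 were not listed there. The exposed cells spent 12 h in serum-free medium, to synchronise them, and were then given 120 µM bisphenol A (BPA), a monomer of polycarbonate plastic, in medium with 10% serum over 48 h. The control cells (CON) had the same steps with 0.1% dimethyl sulfoxide, the solvent, in place of BPA. The labels give no solvent level for the BPA cells. RNA of each culture was divided among an mRNA, a small RNA and a circular RNA library, so each group had 1 library of each kind, and no difference between BPA and CON has a replicate check. Both cultures carry the transgenes that immortalised the line, SV40 large T antigen and a p53 that depends on temperature, and per the labels they grew at 37 °C.

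In the testis, spermatogonia divide by mitosis, and retinoic acid then switches on Stra8 and with it the meiotic programme. Spermatocytes replace parts of the mitotic cohesin ring with meiotic subunits, pair homologous chromosomes by the synaptonemal complex, cut DNA with SPO11 and repair the cuts with DMC1 and the MutS and MutL relatives MSH4, MSH5 and MLH3. Spermatids later pack DNA with transition proteins and protamines. Many genes of this programme are silent in other tissues, and in embryonic stem cells the repressor complex PRC1.6, which holds E2F6, MGA and MAX, is known to keep a set of them off.

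The BPA library held 33071378 reads and the CON library 32312872. A count of 0 allows up to 3 reads, which is 0.0907 in BPA and 0.0928 in CON as CPM (the count after scaling each library to one common size). Such limits, and the intervals given with ratios, hold for counting error alone, because PCR copies without molecular identifiers are counted as if each were a molecule. The mRNA table held 0 genes at 0 in both libraries, so a gene with no reads in either may be missing for that reason, and the 22 genes outside it are called not listed here and not absent. Gene positions and exon lengths below are those of GENCODE M21 on GRCm38. If such a gene had 0 reads in both libraries, its limit per length would run from 0.0152 CPM per kilobase of exon (RPKM) for Sycp2 to 0.208 RPKM for the short Tnp1 in the BPA library, and from 0.0156 to 0.212 RPKM in CON. In bulk RNA, fewer cells that express a gene and less RNA of it per cell cannot be told apart.

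Most of the genes had few or no reads, and 3 genes held most of the reads there were. In both libraries together, 6 of the 41 genes had 100 or more reads, 8 had at least 10 but under 100, 5 had 1 to 9 and 22 were not listed. Among the 21951 protein-coding genes of the GENCODE M21 annotation, 50.3% had 100 or more reads and 33.5% were not listed, against 14.6% and 53.7% of the germ cell genes. The genes summed to 120 CPM in BPA and 89.3 CPM in CON, and Syce2 alone gave 54.3% of these reads in BPA and 57.3% in CON. With Hspa2 and Mybl1 added, the shares were 86.5% in BPA and 88.9% in CON. Whether the reads of these 3 genes are particular to germ cells was not tested, since no other cell type was measured. Several markers of germ cells and meiosis were not listed or under 10 reads in this spermatocyte-derived line, with no testis sample here to compare. Sycp1, Dmc1, Spo11, Smc1b and Rec8 were not listed, Sycp3 had 0 reads in BPA and 6 in CON, and Ddx4 had 9 in BPA and 0 in CON.

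**Figure D1:**
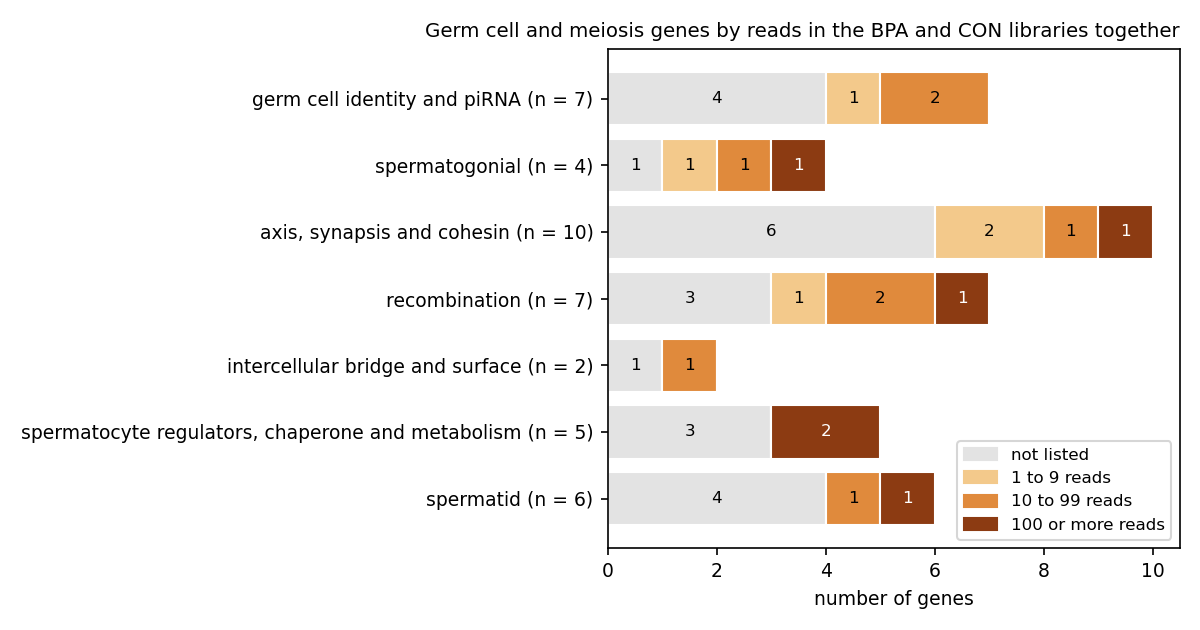
Number of genes (horizontal axis) in each functional group of the 41 germ cell and meiosis genes, split by the reads of the BPA and CON mRNA libraries together. The grey part, genes not listed, is the largest part in the groups of germ cell identity, axis and synapsis, recombination, spermatocyte regulator and spermatid genes, and 6 genes in all reach 100 reads.

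The genes that mark germ cell identity and the piRNA pathway, which silences transposons in germ cells, were at the edge of detection. Dazl, an RNA-binding factor that licenses germ cells, Nanos2, which holds male germ cells out of meiosis, and the piRNA-binding proteins Piwil1 and Piwil4 were not listed. Ddx4, the germ cell RNA helicase known as VASA, had 9 reads in BPA and 0 in CON, and the 0 allows up to 0.0308 RPKM. Piwil2 had 13 reads in BPA and 7 in CON. Nanos3, which keeps primordial germ cells alive, had 7 reads in BPA and 3 in CON. All 3 listed genes thus had their larger count in the BPA library, but from 29 reads in BPA and 10 in CON, and the log2 ratios of BPA over CON, 0.71 for Piwil2 (interval -0.65 to 2.35) and 0.91 for Nanos3 (-1.02 to 3.69), have intervals that include 0.

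Among the spermatogonial genes, Gfra1 stood above the rest. Gfra1, the receptor by which spermatogonial stem cells sense GDNF (chromosome 19, 58235604 to 58455909), had 104 reads in BPA and 52 in CON, or 0.574 and 0.294 RPKM. Its log2 ratio of 0.88 had an interval of 0.39 to 1.40. Kit, the receptor for stem cell factor on differentiating spermatogonia, had 3 reads in BPA and 7 in CON, and its log2 ratio of -1.09 (interval -3.92 to 0.80) rests on those 10 reads. Zbtb16, the stem cell factor PLZF, had 0 reads in BPA, which allows up to 0.0172 RPKM, and 4 in CON. Stra8, the gene that answers to retinoic acid at meiotic entry, was not listed.

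Of the 10 genes of the chromosome axis, synaptonemal complex and meiotic cohesin, Syce2 was the exception to low counts. Syce2, a protein of the central element of the synaptonemal complex (chromosome 8, 84872111 to 84888221), had 2151 reads in BPA and 1655 in CON. That is 33 RPKM in BPA and 26 RPKM in CON, above 88.8% and 86.0% of the listed protein-coding genes of those libraries. Its log2 ratio was 0.27 with an interval of 0.17 to 0.36. The gene overlaps Gcdh on the other strand, but no exon is shared. None of its partners came near it. Syce1, of the same central element, the transverse filament Sycp1, the axis proteins Sycp2 and Hormad1, and the cohesin subunits Rec8 and Smc1b were not listed.

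Of the remaining axis genes, Hormad2, which marks unsynapsed chromosome axes, had 17 reads in BPA and 4 in CON, a log2 ratio of 1.75 (interval 0.36 to 4.01). The cohesin subunit Stag3 had 7 reads in BPA and 0 in CON, where the 0 allows up to 0.0162 RPKM. Sycp3, the axis protein used to stain spermatocytes, had 0 reads in BPA, which allows up to 0.0718 RPKM, and 6 in CON. Its exons overlap those of Chpt1 on the other strand over 660 of 1264 bases, and Chpt1 had 623 reads in BPA and 544 in CON. The labels call the mRNA kit strand-specific, but no source used here says whether the counting used strand, so the 6 reads of Sycp3 are uncertain.

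Of the 7 recombination genes 4 were listed, and Mlh3 and Msh5 held most of their reads. Mlh3, the MutL relative of crossover formation, which also takes part in mismatch repair (chromosome 12, 85234520 to 85270599), had 154 reads in BPA and 66 in CON, or 0.616 and 0.270 RPKM. It was the 1 gene with 100 or more reads that was at least 2-fold higher in BPA, at a log2 ratio of 1.1 (interval 0.69 to 1.55). Msh5, which with Msh4 holds recombination intermediates, had 60 reads in BPA and 31 in CON and a log2 ratio of 0.82 (0.19 to 1.52). Its partner Msh4 had 4 reads in BPA and 6 in CON, with a log2 ratio of -0.58 (-2.96 to 1.38). So the partners of the MSH4 and MSH5 complex differed in level, at 0.0175 RPKM for Msh4 and 0.328 RPKM for Msh5 in BPA, and 0.0269 and 0.174 RPKM in CON. Meiob, a single-strand DNA-binding protein of meiosis, had 0 reads in BPA, which allows up to 0.0504 RPKM, and 3 in CON. Spo11, which makes the DNA cuts, the strand exchange protein Dmc1 and the X-linked Tex11 were not listed.

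**Figure D2:**
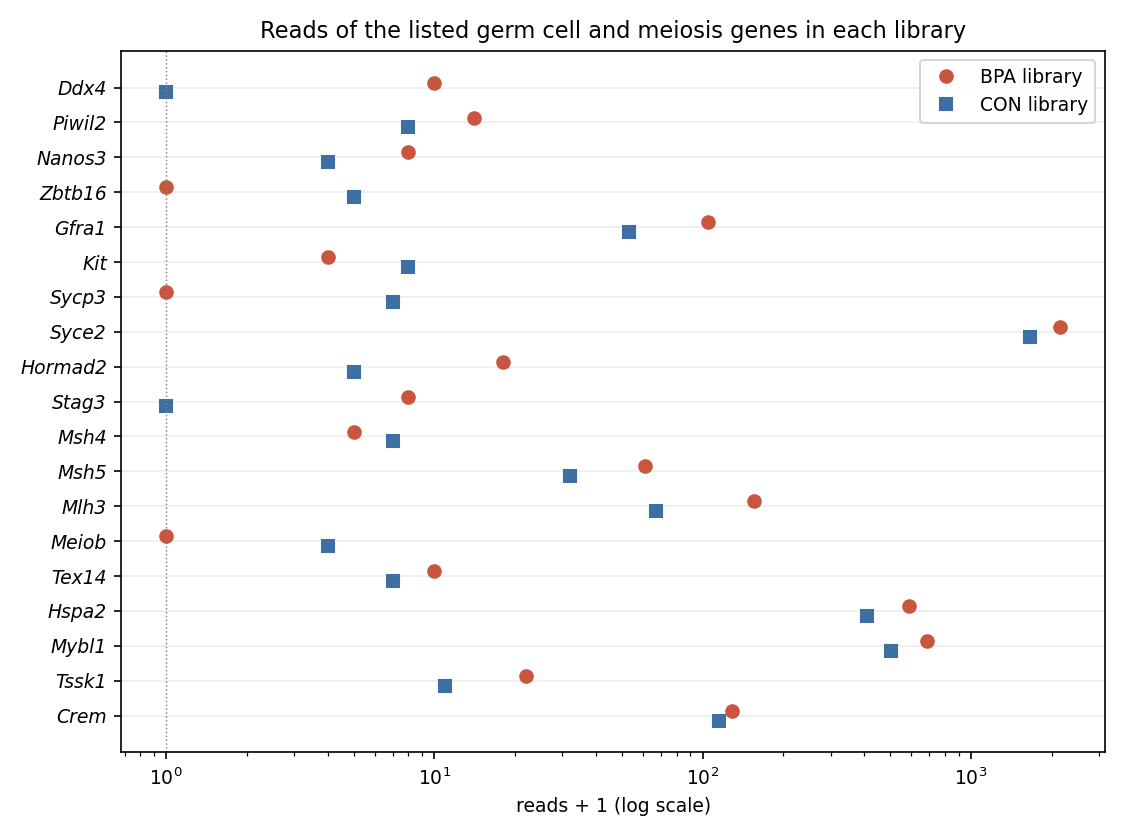
Reads plus 1 (log scale) of the 19 listed germ cell and meiosis genes in the BPA mRNA library (circles) and the CON mRNA library (squares), 1 library each, in the order of their roles. Syce2, Mybl1 and Hspa2 lie at 411 reads or more in both libraries, and the dotted line marks 0 reads, where Ddx4 and Stag3 lie in CON and Zbtb16, Sycp3 and Meiob in BPA.

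The spermatocyte regulators held 2 further genes with over 100 reads in each library. Mybl1, the transcription factor A-MYB that drives much of the pachytene programme (chromosome 1, 9667415 to 9700209), had 685 reads in BPA and 501 in CON, or 3.83 and 2.87 RPKM. Its log2 ratio was 0.34 (interval 0.17 to 0.51). Hspa2, a chaperone found in spermatocytes (chromosome 12, 76404176 to 76406938), had 588 reads in BPA and 411 in CON, or 6.72 and 4.81 RPKM, and a log2 ratio of 0.40 (0.22 to 0.59). Hspa2 belongs to a family of like sequences, and no source used here says how reads that match several members were counted. The testis forms of the glycolytic enzymes, Pgk2 and Ldhc, and the meiotic cyclin Ccna1 were not listed, nor was Tex101, a surface protein of germ cells. Tex14, which builds the bridges between germ cells, had 9 reads in BPA and 6 in CON and a log2 ratio of 0.42 (-1.18 to 2.24).

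Of the spermatid genes, Crem had the most reads and differed least. Crem, a transcription factor of which 1 isoform activates spermatid genes while others are made in many tissues (chromosome 18, 3266048 to 3337748), had 128 reads in BPA and 114 in CON. Its log2 ratio was 0.06 (interval -0.32 to 0.43), and the gene-level counts do not separate its isoforms. It shares 472 exon bases with Gm6225 on the other strand, which had 5 reads in BPA and 11 in CON. Tssk1, a kinase of spermatids, had 21 reads in BPA and 10 in CON, with a log2 ratio of 0.90 (-0.19 to 2.21). It shares 63 exon bases with Dgcr2 on the other strand, which had 3528 reads in BPA and 3341 in CON. The protamines Prm1 and Prm2, the transition protein Tnp1 and the acrosomal protease Acr, which spermatids make in large amounts, were not listed.

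The comparison of BPA with CON asked whether the exposure moved these genes. A ratio was computed where both libraries together held at least 10 reads, on a log2 scale with a pseudocount of 1, which left 14 of the 41 genes. Of them 12 were above a log2 ratio of 0 and 2, Kit and Msh4, below, where 51.9% of all 16870 genes past the same filter were above. Hormad2 and Mlh3 were at least 2-fold higher, 2 of 14, where 6.88% of all genes were, and Kit was at least 2-fold lower, 1 of 14, where 4.61% were. For Syce2, Mybl1, Hspa2, Mlh3, Gfra1, Msh5 and Hormad2, 7 of 14, the counting interval lay above 0, where that of 28.2% of all genes did, and for 0 it lay below, against 26.5%. The median log2 ratio of the 14 genes was 0.56, against 0.02 over all genes past the filter.

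The ratios differed between the read classes. The 6 genes with 100 or more reads had a median of 0.37, from 0.06 for Crem to 1.1 for Mlh3, against 0.01 over the 12359 genes with as many reads, of which 51% were above 0, 2.48% past 2-fold upward and 1.54% past 2-fold downward. All 6 germ cell genes were above 0. The 8 genes with at least 10 but under 100 reads had a median of 0.76, against 0.10 over 4511 genes, of which 18.9% were 2-fold or more above and 13% as far below. Hormad2 above and Kit below were 1 of 8 each (12.5%), so at low counts the share of germ cell genes past 2-fold was no larger than the background. Without Syce2 the genes summed to 54.7 CPM in BPA and 38.1 CPM in CON.

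**Figure D3:**
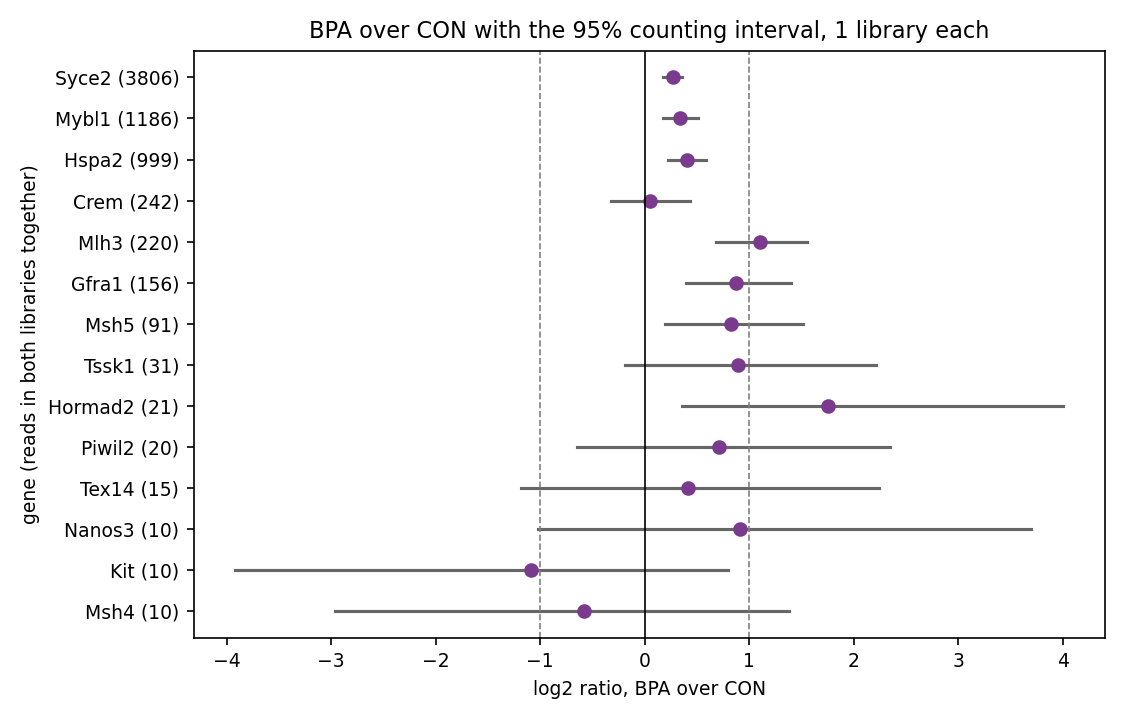
Log2 ratio of BPA over CON (circles) with its exact 95% counting interval (lines) for the 14 germ cell and meiosis genes with at least 10 reads in both libraries together, ordered by that number, which stands beside each name. Dashed lines mark 2-fold. The intervals of 7 genes lie above 0, and those of the other 7, among them Kit and Msh4 on the lower side, include it.

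Each of 16 germ cell genes was set beside a relative that works in dividing or somatic cells. Levels were compared per length, as RPKM within a library. In 15 of the 16 pairs the relative was the higher gene in both libraries, with the 5 germ cell genes that were not listed counted as 0. The relatives had median levels of 37.2 RPKM in BPA and 37.3 RPKM in CON. The mitotic cohesin subunits Smc1a, at 95.3 RPKM in BPA and 98 RPKM in CON, and Rad21, at 108 and 113 RPKM, stood where Smc1b and Rec8 were not listed. Stag2 was at 16.1 RPKM in BPA and 17.1 RPKM in CON, where Stag3 was at 0.0369 RPKM in BPA and 0 in CON. The 3 meiotic cohesin subunits of these pairs were thus not listed or under 10 reads, beside their mitotic relatives at 16.1 RPKM or more.

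The same held for metabolism and the cell cycle. Pgk1 was at 656 RPKM in BPA and 709 RPKM in CON, Ldha at 315 and 389 RPKM, and Ccna2 at 78.8 and 89.6 RPKM, while Pgk2, Ldhc and Ccna1 were not listed. Where both genes of a pair had reads, the distance varied widely. Hspa8 was 82.4 times the level of Hspa2 in BPA (interval 76.0 to 89.5) and 137 times in CON (124 to 151). Mybl2, the B-MYB of the cell cycle, was 7.07 times the level of Mybl1 in BPA (6.52 to 7.67) and 11.7 times in CON (10.6 to 12.8). Both factors were smaller in BPA than in CON. Both genes of each pair differed between the libraries, since the log2 ratio of BPA over CON was 0.40 for Hspa2 and -0.33 for Hspa8, and 0.34 for Mybl1 and -0.38 for Mybl2. Creb1 was 1.63 times the level of Crem in BPA (1.34 to 1.99) and 1.52 times in CON (1.23 to 1.88). Gfra1 was the exception, with its relative Gfra2 at 0.145 RPKM in BPA and 0.227 RPKM in CON, below it in both. Gfra2 was 0.253 times the level of Gfra1 in BPA (0.142 to 0.425) and 0.774 times in CON (0.464 to 1.26), so in CON the counts did not set the order.

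**Figure D4:**
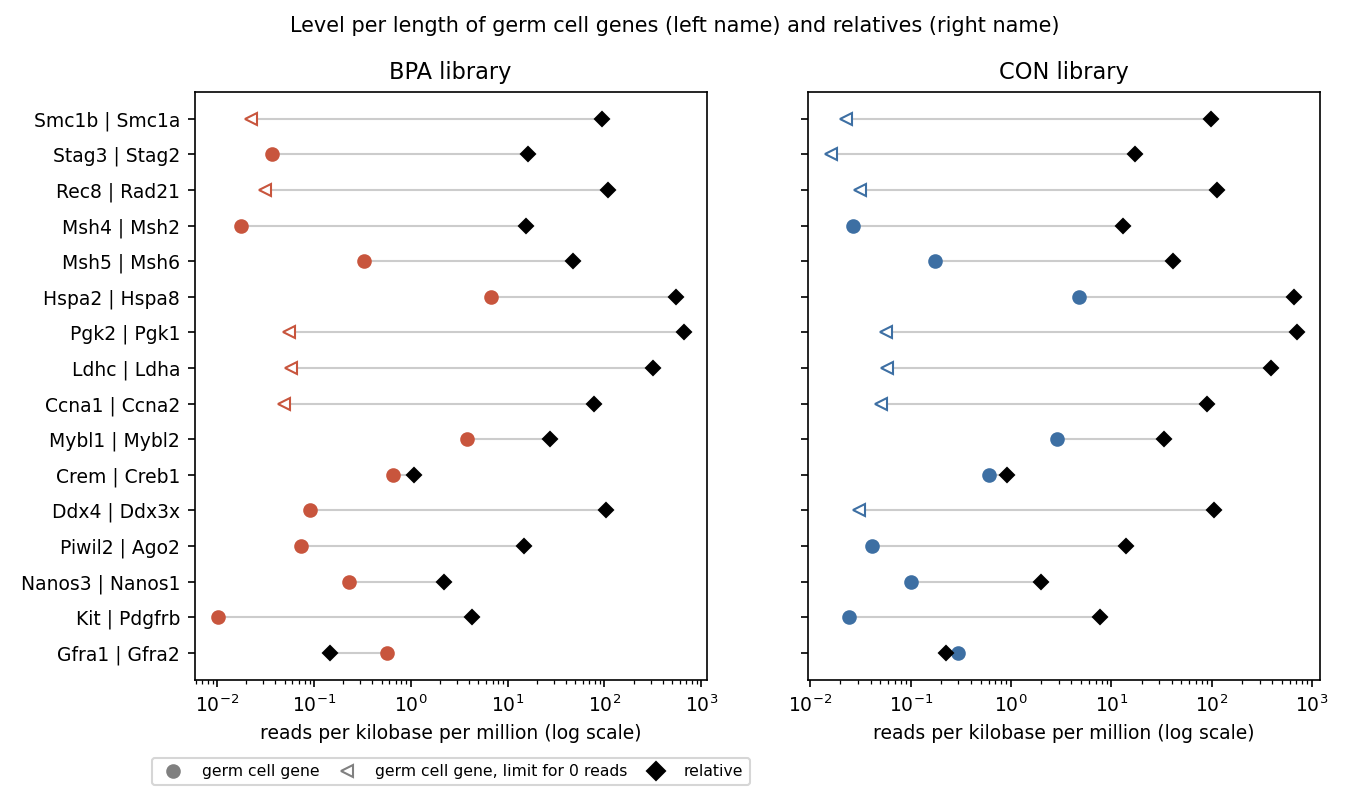
Level per length (RPKM, log scale) of 16 germ cell genes (circles) and of their relatives (black diamonds) in the BPA library (left) and the CON library (right), 1 library each. Open triangles stand at the limit that 0 reads would allow, for genes at 0 or not listed, and the diamond lies to the right of the germ cell gene in all pairs but that of Gfra1 and Gfra2.

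Promoter sequence, which the choice of genes had not used, was described by motifs, and most of the genes lacked each of them. RefSeq promoter windows of GRCm38.p6, from 250 bases before to 50 after a start, were on hand for 33 of the 41 genes. Both strands were searched for the E-box CACGTG, which MGA and MAX bind, and for GCGGGAA, which E2F6 binds. The E-box was in 7 of 33 genes (21.2%), against 8.09% of 27025 genes, and GCGGGAA was in 8 of 33 (24.2%), against 5.29%. Both motifs together, a pairing not among the motifs planned, were in 5 of 33 (15.2%), against 0.611%. The promoters of the 33 genes had a median ratio of observed to expected CpG of 0.625, against 0.415 over all genes, and both motifs hold a CG themselves. Among genes with this ratio above 0.6, both motifs together were in 5 of 17 germ cell genes (29.4%), against 1.41% of 10357 genes. A match is a description and not a bound site, and it does not tell which factor, if any, binds there. PRC1.6 is already known to keep a set of such genes off, so these shares are no independent check of the list.

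The 5 windows with both motifs are shown because the share of genes with both was, as a ratio, farthest from that in all genes, with the E-box and GCGGGAA, or its reverse complement TTCCCGC, in capitals. They are read 5′ to 3′ on the strand of the gene.
Ddx4 (chr13:112652261-112652560, - strand): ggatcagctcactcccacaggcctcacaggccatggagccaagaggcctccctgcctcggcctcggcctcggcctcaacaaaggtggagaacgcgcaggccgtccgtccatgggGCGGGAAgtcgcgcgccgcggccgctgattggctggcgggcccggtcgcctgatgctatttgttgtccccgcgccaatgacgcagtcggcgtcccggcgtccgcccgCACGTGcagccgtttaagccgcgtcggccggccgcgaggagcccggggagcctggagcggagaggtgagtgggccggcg
Sycp3 (chr10:88459337-88459636, + strand): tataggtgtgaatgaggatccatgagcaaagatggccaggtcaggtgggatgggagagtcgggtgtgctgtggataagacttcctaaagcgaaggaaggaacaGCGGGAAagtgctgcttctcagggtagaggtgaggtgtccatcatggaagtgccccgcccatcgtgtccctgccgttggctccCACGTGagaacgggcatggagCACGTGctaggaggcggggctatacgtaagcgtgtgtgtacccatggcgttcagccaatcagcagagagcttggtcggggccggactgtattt
Stag3 (chr5:138280259-138280558, + strand): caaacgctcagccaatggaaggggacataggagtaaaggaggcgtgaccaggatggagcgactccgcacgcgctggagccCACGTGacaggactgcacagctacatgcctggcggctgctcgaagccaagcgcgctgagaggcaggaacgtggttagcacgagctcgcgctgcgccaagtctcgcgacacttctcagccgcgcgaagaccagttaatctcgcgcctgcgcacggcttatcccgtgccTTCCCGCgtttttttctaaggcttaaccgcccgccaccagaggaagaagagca
Hormad1 (chr3:95559427-95559726, + strand): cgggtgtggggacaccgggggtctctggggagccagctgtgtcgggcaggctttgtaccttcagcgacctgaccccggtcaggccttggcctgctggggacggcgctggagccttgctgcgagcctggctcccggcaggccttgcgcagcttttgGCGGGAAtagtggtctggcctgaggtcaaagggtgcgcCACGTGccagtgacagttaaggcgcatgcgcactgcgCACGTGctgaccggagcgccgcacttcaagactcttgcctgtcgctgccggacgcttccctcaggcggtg
Syce2 (chr8:84872008-84872307, + strand): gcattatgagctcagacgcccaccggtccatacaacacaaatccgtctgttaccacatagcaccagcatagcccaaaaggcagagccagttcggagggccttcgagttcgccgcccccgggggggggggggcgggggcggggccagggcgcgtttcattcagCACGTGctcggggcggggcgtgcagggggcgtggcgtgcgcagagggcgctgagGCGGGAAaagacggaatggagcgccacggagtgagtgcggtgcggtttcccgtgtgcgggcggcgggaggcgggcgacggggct

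The 5 genes with both motifs covered the whole range of levels. Hormad1 was not listed, Ddx4, Stag3 and Sycp3 were at 0 in 1 of the libraries and had 9, 7 and 6 reads together, and Syce2 had the most reads of all 41 genes. The window shown for Syce2 is the second of 2 RefSeq starts, and the first holds neither motif. Of the other motifs, AACNGTT, bound by the MYB family, was in 3 of 33 genes (9.09%), Ldhc, Piwil4 and Sycp1, against 5.01% of all genes. None of these 3 was listed. The STRA8 motif CNCCTCAG was in 6 of 33 (18.2%) against 9.12%, and the full cAMP response element TGACGTCA of CREM in 0 of 33 against 2.03%. None of the motifs contains another.

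**Figure D5:**
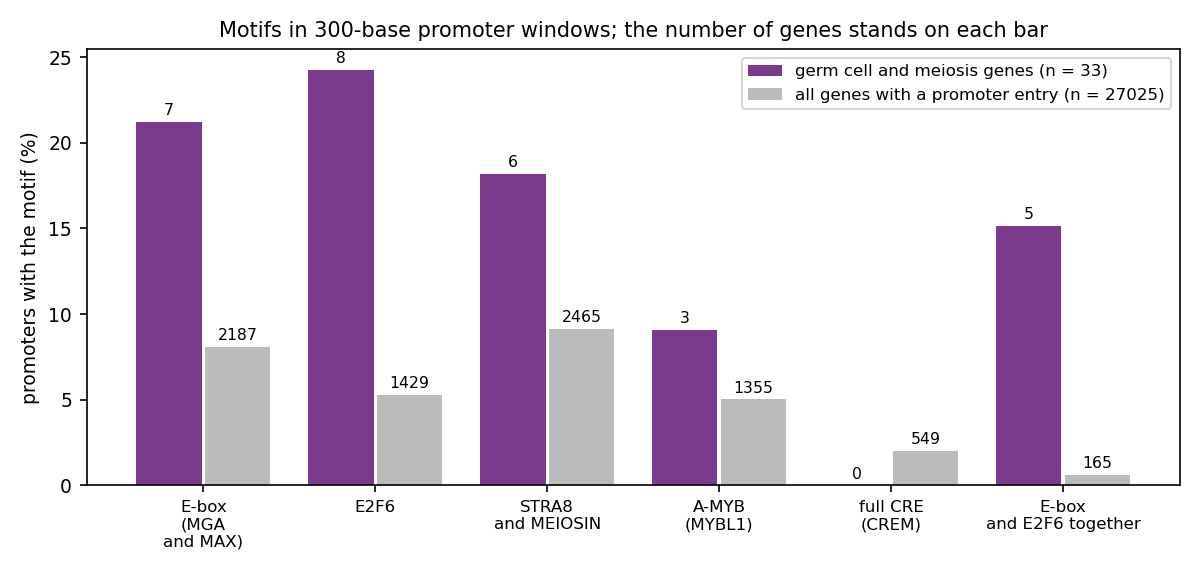
Share of genes (vertical axis, percent) with each motif in a promoter window of 300 bases, for the 33 germ cell and meiosis genes with a RefSeq promoter (purple) and for the 27025 genes with one (grey), with the number of genes on each bar. The widest ratio between the bars is for the E-box and GCGGGAA (labelled E2F6) together, in 5 genes (15.2%) against 165 genes (0.611%). A label does not tell which factor binds.

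Further genes of the same programme, from lists drawn up with earlier results known, were counted in the same way. Their counts past 2-fold stand beside 6.88% of all genes higher and 4.61% lower, or 18.9% and 13% among genes with at least 10 but under 100 reads. Of 36 other meiotic genes in the annotation, 15 were listed and 6 had 100 or more reads. The 4 with the most reads were Trip13, a checkpoint ATPase of mitosis and meiosis, at 16.7 RPKM in BPA and 16.6 RPKM in CON, the RNA helicase Ythdc2 at 3.52 and 4.30 RPKM, and the DMC1 partners Psmc3ip at 19.2 and 16.3 RPKM and Mnd1 at 11.6 and 8.38 RPKM. Psmc3ip and Mnd1, which form the HOP2 and MND1 complex, thus had reads where Dmc1 was not listed. Of 10 genes past the filter 6 were above 0, 3 were at least 2-fold higher and 0 lower, and the median log2 ratio was 0.09. The 3 were Brdt, a bromodomain protein of spermatocytes, with 139 reads in BPA and 63 in CON, Cntd1 with 32 and 12, and Gm960 with 10 and 2, named for their ratios after these were seen. Cntd1 and Gm960 had under 100 reads in both libraries together, and the interval of Gm960 (-0.02 to 5.44) includes 0.

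Of 15 piRNA pathway genes 9 were listed, led by Tdrd7 with 1428 reads in BPA and 1294 in CON and Tdrkh with 440 and 318, both tudor proteins. Of its 6 genes past the filter 2 were above 0 and 2 at least 2-fold lower, Gtsf1, with 13 reads in BPA and 34 in CON, and Tdrd12, with 5 and 11, and the median was -0.43. Both had under 100 reads together, and the interval of Tdrd12 (-3.13 to 0.39) includes 0. Of 28 other spermatid genes 16 were listed and 7 passed the filter, 4 at least 2-fold higher and 1 lower, with a median of 1.09. Odf2, a sperm tail protein that is also a part of centrosomes, led them with 2348 reads in BPA and 1654 in CON, and the 4 higher ones, Catsper2, Tekt2, Klhl10 and Tssk6, had 126 reads or fewer each in both libraries together. Of these and Oaz3, the lower one, all but Catsper2 had under 100, and the interval of Tssk6 (-0.06 to 3.29) includes 0. Of 22 other spermatogonial and early germ cell genes 12 were listed and 9 passed the filter, 7 of them above 0, with a median of 0.33. Etv5, a GDNF target in stem cells that other growth factor signals induce too, was the 1 at 2-fold, with 2610 reads in BPA and 1163 in CON.

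By contrast, all 25 homologous recombination, mismatch repair and cohesin genes that dividing cells use were listed with 100 or more reads, summing to 3875 CPM in BPA and 4091 CPM in CON. Of them 13 were above 0, where 51% of all genes with 100 or more reads were, and the median was 0.01. At 2-fold in either direction there were 0, where 2.48% of those genes were higher and 1.54% lower. These counts do not stand apart from the background. Of the markers of somatic cells of the testis, those of peritubular and Sertoli cells were mostly listed, as were 66.5% of all protein-coding genes. Of 14 peritubular and fibroblast markers 12 were listed, summing to 3223 CPM in BPA and 5939 CPM in CON. Col1a1 gave 1190 CPM of that sum in BPA and 2452 CPM in CON, Vim 1102 and 1600 CPM, and Col1a2 639 and 1292 CPM. Lum and Thy1 were not listed, and Myh11 had 9 reads and Dcn 8 in BPA, with both at 0 in CON. Past the filter 9 of 10 were below 0, with a median of -0.91, where 51.9% of all genes were above 0. Of 14 Sertoli cell markers 11 were listed, at 605 CPM in BPA and 613 CPM in CON, and Fshr, Cldn11 and Gata1 were not. Tjp1 gave 247 CPM of that sum in BPA and 296 CPM in CON, and Kitl 199 and 178 CPM. Of the 11 listed markers 7 had 100 or more reads in both libraries together. The median log2 ratio of the Sertoli cell markers was 0.32. Of 9 Leydig cell markers 3 were listed, at 70.5 CPM in BPA and 55.7 CPM in CON, with Cyp11a1 and Cyp17a1 not listed and Insl3 at 0 in CON. Nr5a1 alone held 67.8 CPM of that sum in BPA and 53.6 CPM in CON. The part of these cell type markers in the ratios of the germ cell genes was not tested.

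The circular RNA libraries held 3 circRNAs of the germ cell genes, all exonic and all without a circBase name. The one of Mybl1 (chromosome 1, 9678272 to 9683168) had 1 back-splice event in BPA and 0 in CON, and the one of Syce2 (chromosome 8, 84883431 to 84886123) also 1 and 0. The one of Tex14 (chromosome 11, 87474404 to 87499662) had 2 and 0. Of all 9158 circRNAs, 48.6% had events in BPA and 0 in CON, so these counts do not stand apart. Tex14 had a circRNA from a gene with 15 mRNA reads in both libraries together.

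The small RNA libraries were searched for the miR-34 and miR-449 family, which spermatocytes make in quantity. Of 11 family names searched 6 were listed. The shared seed, bases 2 to 8, is in capitals to show why 5p members from different genes are grouped, and the second group shows the 3p arms of the gene pair Mir34b and Mir34c, with sequences from RefSeq.
mmu-miR-34a-5p: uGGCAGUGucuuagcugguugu
mmu-miR-34b-5p: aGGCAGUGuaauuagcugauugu
mmu-miR-449a-5p: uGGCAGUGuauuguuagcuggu
mmu-miR-34b-3p: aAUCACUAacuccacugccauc
mmu-miR-34c-3p: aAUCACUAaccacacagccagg

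Of these, miR-34c-5p was the most abundant, with 1997 reads in BPA and 586 in CON, or 578 and 149 CPM. Next came miR-34a-5p, with 1073 reads in BPA and 373 in CON, whereas miR-449a-5p had 1 read in each library and miR-34b-5p 2 reads in BPA and 0 in CON. So the family was represented by the miR-34 genes, which cells outside the testis express too. Whether the p53 of this line acted on any of the miR-34 genes was not tested. The size of the difference between BPA and CON depended on the scaling, since the median of all 464 miRNAs moved by 1.70 on the log2 scale between scaling by the library total and the trimmed mean of M-values (TMM). Relative to most other miRNAs (TMM), the log2 ratio of miR-34c-5p was 0.25 (interval 0.12 to 0.39) and that of miR-34a-5p 0.01 (-0.16 to 0.18). Only miR-34b-3p, with 63 reads in BPA and 6 in CON, of the 4 members with a ratio was at least 2-fold higher under TMM, at 1.77 (0.68 to 3.38), where 12.1% of all miRNAs were. By the library total these ratios were 1.95, 1.71 and 3.47, where 78% of all miRNAs were past 2-fold upward and 2.8% downward. None of the 4 was past 2-fold downward under TMM, where 16.4% of all miRNAs were.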

How the data were processed

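Groups were taken from the sample titles, with 1 library in each of 6. Per the submitters' processing notes, STAR and StringTie, with no version, were named for the mRNA libraries, STAR for the circRNA libraries and Bowtie 1.1.0 for the miRNA libraries, with the builds GRCm38 and mm10. No source used here names the read counter, the circRNA or miRNA caller or the annotation release. The deposited mRNA and circRNA values were log2 values, per the values themselves. With the log undone and 1 taken off, 100% of mRNA values divided without remainder (tolerance 0.001) by a step of 0.962 in BPA and 1.04 in CON, which gave whole reads, and the authors' scaling was kept. Deposited circRNA values were halved in the same way to back-splice events, on the assumption that a step of 2 is 1 event. The deposited miRNA values were read counts.

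Ratios used log2(value + 1) for mRNA and 0.5 reads added for miRNA, with TMM factors from edgeR 4.0.16 (R 4.3.3) for miRNA. With no replicates, no test was made and no p-value computed. An exact conditional binomial (Clopper-Pearson) 95% interval (SciPy 1.17.1) covers counting error of the 2 libraries and takes the scaling as known. The interval of a ratio has no pseudocount. RPKM used the summed exon length from GENCODE M21 (GRCm38), whose IDs matched 22036 of 22127 genes. The 41 genes, the lists and the pairs were chosen with earlier results of these data known, and the miRNAs and printed promoters after these values were seen. Every one of the 41 genes is accounted for, those with at least 10 reads together are given with both values and a ratio, and of each other list the 4 genes with the most reads could be named, here with fewer named in some lists. Some gene pairs are not reported here. Alternatives were other scalings, pseudocounts 0.5 and 5, other filters and transcript lengths.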

Additional observations from a re-analysis of the deposited data

How the results depend on the processing

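No paired analysis was possible because each group had 1 library, and no library could be left out. With scaling by TMM or by the library total, and with a pseudocount of 0.5, the counts of germ cell genes past 2-fold and the medians stayed close to those given (0.55, 0.63 and 0.59 for the median of the 14 genes). All 56 ratios of the 14 genes under the 2 other scalings and the 2 other pseudocounts lay inside their counting intervals. Those intervals are wide at low counts, so for genes with few reads this is a weak check. The filter mattered most. With no filter, 4 germ cell genes were at least 2-fold higher and 4 lower, with a median of 0.42, beside 2978 and 2381 of all genes. With at least 50 reads together, 7 genes were measured, all 7 above 0, 1 at least 2-fold higher and 0 lower, with a median of 0.40, beside 440 and 277 of all genes. With a pseudocount of 5, 0 genes were at least 2-fold lower and the median was 0.46. The median of the piRNA list was -0.32 with a pseudocount of 5 and 0.0306 with at least 50 reads, where fewer genes passed. That of the other spermatid genes was 0.91 with a pseudocount of 5, 0.85 with no filter and 0.76 with at least 50 reads, and with at least 50 reads that of the spermatogonial list was 0.19 and that of the Sertoli list -0.0307. With no filter that of the peritubular list was -0.76. Taking the longest transcript as the length gave Msh6 over Msh5 as 77.0 times in BPA and 126 times in CON, against 144 and 237 times with summed exons. It gave Hspa8 over Hspa2 as 107 and 178 times, Mybl2 over Mybl1 as 8.27 and 13.6 times and Creb1 over Crem as 1.33 and 1.24 times. With the smallest RefSeq start only, chosen after seeing the data, the E-box was in 6 and GCGGGAA in 7 of 33 genes. Counts under 10 limit most of these genes to a statement of detection.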

Other observations

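The X-linked miRNA cluster from miR-743a to miR-465a (chromosome X, 66776760 to 66839121 on GRCm38.p6), known for expression in testis, had 8 of 34 mature names listed. They summed to 244 reads in BPA and 138 in CON, or 70.7 and 35.1 CPM. Most came from miR-881-3p, with 188 reads in BPA and 103 in CON, and its direction turned with the scaling, at a log2 ratio of -0.65 under TMM and 1.05 by the library total. In miR-871-3p, with 13 reads in BPA and 28 in CON, the ratio was below 0 under both, at -2.59 (interval -3.69 to -1.62) under TMM and -0.89 (-1.99 to 0.0756) by the library total. Others had ratios above 0 under both, miR-470-5p, with 23 reads in BPA and 3 in CON, at 1.23 and 2.93, and miR-465c-5p, with 8 and 2, at 0.25 and 1.95. Under TMM the intervals of both of these miRNAs included 0, so the counts did not set their direction there. By the library total the interval of miR-470-5p lay above 0 and that of miR-465c-5p included it. The cluster was chosen after its values were seen, and its expression in the line was not compared with testis.

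Prdm9, the histone methyltransferase that places recombination hotspots in mouse meiosis, had 249 reads in BPA and 227 in CON, or 1.75 and 1.63 RPKM, and a log2 ratio of 0.02 (interval -0.24 to 0.29). It was singled out after its values were seen. That level lies above those of Mlh3 and Gfra1 per length in both libraries, while Spo11 and Dmc1, which act at the sites it marks, were not listed.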
